A study of Mus musculus with 8 samples.

Results

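Cell surface molecules with a CD number are the standard labels of leukocyte lineages and states. This account covers 21 of them, chosen by symbol from a panel of 754 genes: every gene named Cd plus a digit, 29 in all, except 8 (Cd27, Cd28, Cd34, Cd44, Cd68, Cd74, Cd247 and Cd274). The cells were splenic CD8 T cells, isolated from C57BL/6 mice by negative selection and cultured for 48 hours with antibodies to CD3 and CD28 at 2 µg/ml, 10% LDS and 200 µl of conditioned medium. The medium came from B16F10 cells, a mouse melanoma line, grown for 48 hours with SSBP4 either knocked out or wild type. Each medium had 4 samples, which the series' text calls biological. No label says that samples of a medium came from separate mice or cultures, so the p-values rest on a spread among samples that may be technical. The sources used here do not give mouse age or the number of mice or knockout clones. An unexplained number in the labels runs 2, 3, 4 and 6 in wild-type medium against 8, 9, 10 and 12 in knockout medium, so whatever it stands for cannot be told apart from the medium.

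The CD numbering groups antibodies by the molecule they bind, so the names say nothing of function. Some of the 21 genes encode receptors of T and NK cells (Cd69, Cd244) or a T cell ligand (Cd40lg). Others encode molecules by which antigen-presenting cells instruct T cells (Cd40, Cd70, Cd80, Cd83, Cd86) or present lipids (Cd1d1, Cd1d2). Still others encode pattern recognition or scavenger receptors of myeloid cells (Cd14, Cd36, Cd163, Cd180, Cd209e). Cd151, Cd47, Cd99 and Cd38 are carried by many cell types, as is Cd276, a B7 family ligand that was listed here with co-stimulation. Cd84 belongs to the SLAM family of leukocyte adhesion receptors. Of the 21 symbols, 20 are current in the RefSeq annotation of GRCm38.p6 and Cd244 is now Cd244a.

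RefSeq (GRCm38.p6) supplied a promoter window, 250 bases before to 50 after an annotated start, for 11 of the 21 genes. The 4 windows shown are those of genes that were called higher in knockout medium, and each is the first start listed for its gene. Capitals mark the GC box GGGCGG, the AP-1 motif TGANTCA and the Runx motif TGTGGT, searched on both strands, with no overlap between the matches shown.
Cd151, chr7:141467112-141467411, plus strand: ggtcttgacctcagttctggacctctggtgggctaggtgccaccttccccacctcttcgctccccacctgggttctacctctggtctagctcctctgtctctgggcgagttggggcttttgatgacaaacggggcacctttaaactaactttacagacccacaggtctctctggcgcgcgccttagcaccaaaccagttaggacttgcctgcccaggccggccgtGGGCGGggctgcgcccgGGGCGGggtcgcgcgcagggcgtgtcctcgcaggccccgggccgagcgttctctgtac
Cd276, chr9:58554984-58555283, minus strand: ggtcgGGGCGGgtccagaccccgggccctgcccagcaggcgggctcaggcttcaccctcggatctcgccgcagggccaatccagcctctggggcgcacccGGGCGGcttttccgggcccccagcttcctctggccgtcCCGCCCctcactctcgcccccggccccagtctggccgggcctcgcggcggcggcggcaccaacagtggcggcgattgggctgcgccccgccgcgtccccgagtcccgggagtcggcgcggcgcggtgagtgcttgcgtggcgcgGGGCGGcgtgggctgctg
Cd47, chr16:49855404-49855703, plus strand: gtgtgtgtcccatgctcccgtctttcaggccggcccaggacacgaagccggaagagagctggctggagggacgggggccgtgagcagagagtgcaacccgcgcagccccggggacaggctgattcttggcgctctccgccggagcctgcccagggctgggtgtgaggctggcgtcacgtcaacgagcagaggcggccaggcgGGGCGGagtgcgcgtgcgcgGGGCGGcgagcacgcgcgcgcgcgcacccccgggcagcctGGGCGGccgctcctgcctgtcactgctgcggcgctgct
Cd84, chr1:171839447-171839746, plus strand: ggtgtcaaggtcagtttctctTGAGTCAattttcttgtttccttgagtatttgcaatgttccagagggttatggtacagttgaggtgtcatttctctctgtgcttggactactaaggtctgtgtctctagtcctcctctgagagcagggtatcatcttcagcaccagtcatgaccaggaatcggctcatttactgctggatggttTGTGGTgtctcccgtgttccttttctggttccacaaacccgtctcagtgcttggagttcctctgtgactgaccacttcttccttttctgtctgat

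The windows of Cd151, Cd276 and Cd47 held 64.3%, 78.3% and 74.0% G and C, against a median of 52.7% over 32851 windows in the table. They held 2, 4 and 3 GC boxes, a motif found in 35.7% of all windows. The window of Cd84 had 46.7% G and C, no GC box, 1 AP-1 motif (in 7.81% of all windows) and 1 Runx motif (in 16.8%). Among windows not printed, that of Cd38 had 51.7% G and C and no GC box, and that of the myeloid gene Cd36 had 43.0% and 2 GC boxes. Those of Cd244 and Cd80 held 1 AP-1 motif each, and that of Cd209e held 1 Runx motif. A GC box was in 4 of the 11 windows, near its share of all windows, so these motifs do not set the genes called higher apart. These matches describe letters in the windows, not sites bound by a factor.

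Transcripts were counted as barcoded probes on the nCounter Myeloid Innate Immunity panel, with no amplification. All levels are the authors' normalized counts, as mean ± SD with n = 4 per medium. Recovered probe counts summed to between 188174 and 346676 per sample. T cell identity could be checked only in part, since Cd8a, Cd8b1 and Cd3e were not among the 29 CD-numbered genes measured. On a T cell list of 9 genes, Ptprc, Cd247, Cd27, Cd28, Lat and Fyn were measured, and all 6 had a mean above background. Their summed level was 715 to 1052 in wild-type medium against 1543 to 2308 in knockout medium. Most of it came from Ptprc, with means of 250 and 660, and Fyn, with means of 409 and 753. Neither gene is confined to T cells, so the sum is not a measure of T cells alone. The summed level of 6 stromal genes, among them Cd34, Prrx1, Col3a1 and Pdgfra, was 5783 to 6739 and 52.1 to 88.0. Cd34 alone was 4503 to 5069 in wild-type medium. The others on the list did not fall: Pdgfrb was 22.3 ± 1.34 and 36.8 ± 8.15, and Col1a2 18.3 ± 5.21 and 21.0 ± 8.06. The defining stromal genes are not usual transcripts of T cells. Genes outside these lists went both ways. Among those higher in knockout medium, the means went from 409 to 2679 for Met, 82.4 to 647 for Cdh2, 5.31 to 743 for Timp3 and 4.00 to 314 for Loxl2. Which cells gave these transcripts was not tested, so the low stromal sum does not show that other cells were few. The part of any of these shifts in the results below was not tested. In such bulk RNA, fewer cells of a type and less RNA per cell cannot be told apart.

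Of the 21 molecules, 11 were detected in at least 1 sample and 10 in none. A gene was called detected in a sample when its value reached 22.08, the mean plus 2 SD of 8 negative control probes over all samples. Only Cd47, Cd151, Cd69, Cd1d1 and Cd99 reached it in all 8 samples, 23.8% of the 21 genes, against 41.8% of all 754. Another 6 (Cd84, Cd276, Cd38, Cd244, Cd80 and Cd14) reached it in some samples, and those reaching it in none made up 47.6%, against 31.2% of all genes. Cd84 and Cd276 reached it in all 4 samples of knockout medium and 2 of 4 of wild-type medium. Wild-type medium samples 1 to 4 had 6, 6, 8 and 8 detected molecules, and knockout medium samples 1 to 4 had 8, 9, 9 and 8. An exact two-sided permutation test over the 70 assignments can give no p below 0.1714 for these values, so it says nothing about a difference.

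**Figure D1:**
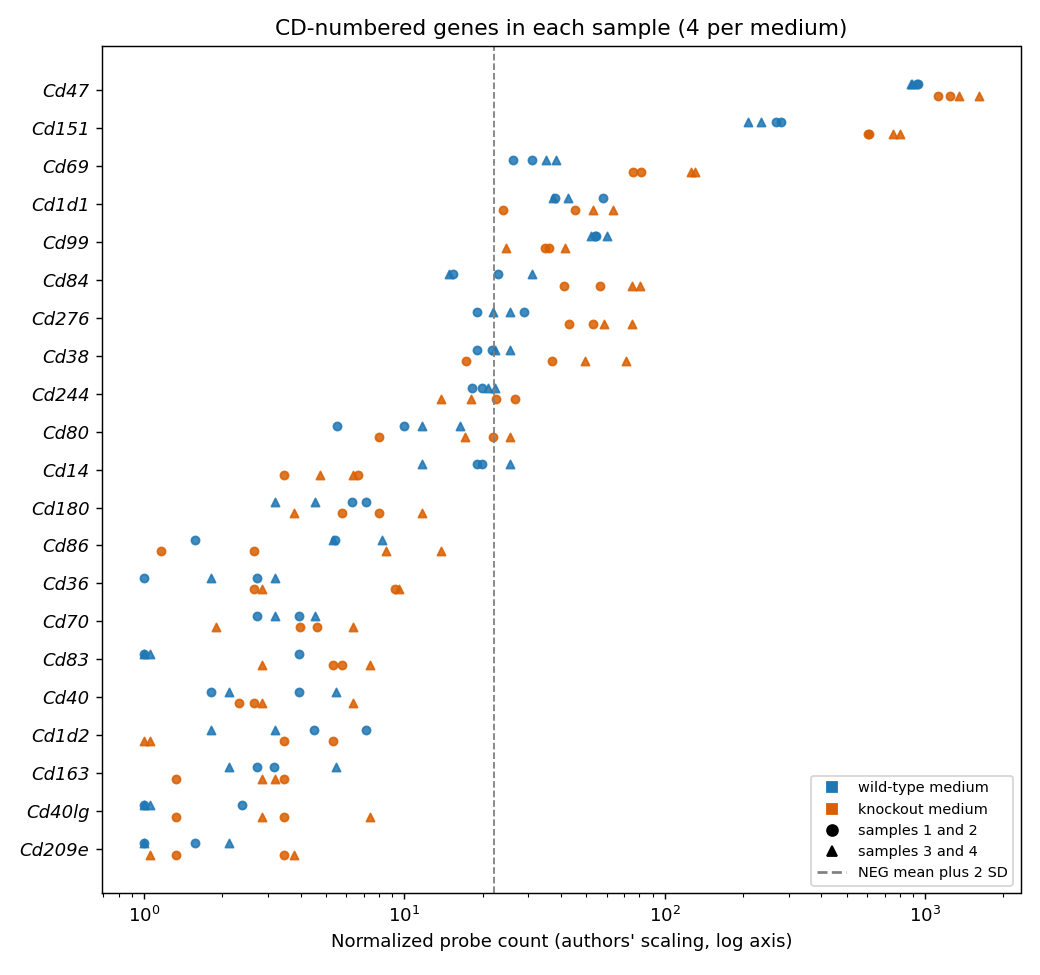
Normalized probe count (log axis) of each of the 21 CD-numbered genes in the 8 samples. Blue marks wild-type medium, orange knockout medium, circles samples 1 and 2, triangles samples 3 and 4, and the dashed line the detection threshold of 22.08. Cd47 and Cd151 lie far above the line, and 10 genes lie below it in every sample.

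The molecules of antigen-presenting cells and macrophages made up most of the undetected set, as they did of the 21 genes. Of 8 genes listed with co-stimulation and lipid presentation 5 were undetected, and of 5 myeloid genes 4, beside 10 of all 21. Cd1d1, Cd276, Cd80 and Cd14, from the same roles, were detected in at least 1 sample. Cd40, the receptor through which helper T cells license antigen-presenting cells, Cd70, the ligand of CD27, Cd83, a dendritic cell maturation marker, and Cd86, a B7 ligand, never rose above 13.8. Of the 5 myeloid molecules, Cd163 (the haemoglobin-haptoglobin scavenger receptor), Cd180 (a Toll-like receptor relative of B and myeloid cells), Cd209e (a lectin related to DC-SIGN) and Cd36 (a fatty acid transporter and scavenger receptor) stayed at 11.7 or less. Cd1d2, the second mouse CD1d gene, and Cd40lg, the T cell ligand of CD40, reached at most 7.13 and 7.42. For all 10 genes the whole range was 1.00 to 13.8, where 1.00 is the lowest value the authors list. Such values do not show that a transcript was absent.

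Another 3 genes lay at the threshold, and values here and below are in sample order 1 to 4. Their values in each sample are given although their means were too low for the test, a choice made after the values were seen. Cd14, the lipopolysaccharide co-receptor of monocytes and macrophages, was 19.0, 19.9, 25.5 and 11.7 in wild-type medium against 6.64, 3.47, 6.36 and 4.74 in knockout medium. Every wild-type medium sample was higher, but only wild-type medium sample 3 reached the threshold, so no fold is given. Among genes too low to be tested, the media did not overlap for 14.0%, and Cd14 was the only one of the 13 untested CD genes in that position. When every gene was tested without a filter, Cd14 was lower in knockout medium by 1.65 on the log2 scale (limma adjusted p = 0.00128, where 15.6% of all genes were lower), a difference between values near background. Cd244, a SLAM family receptor of NK and activated CD8 T cells, was 18.2, 19.9, 20.9 and 22.3 in wild-type medium against 22.6, 26.6, 13.8 and 18.0 in knockout medium. Its media overlapped fully, with equal means of 20.3 ± 1.73 and 20.3 ± 5.56. Cd80, a B7 ligand of CD28 and CTLA-4, was 5.54, 9.95, 16.4 and 11.7 against 7.97, 22.0, 25.5 and 17.1, with only knockout medium sample 3 above the threshold.

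The comparison asked whether T cell cultures in knockout medium differed from those in wild-type medium. Genes were tested when their mean over the 8 samples reached 22.08, which took 454 of 754 genes and 8 of the 21 CD genes; Cd38 passed with the lowest mean, 32.9, and Cd244 failed with the highest, 20.3. Among the 8, Cd69, Cd84, Cd151, Cd276 and Cd47 rose in knockout medium, Cd99 fell, and Cd38 and Cd1d1 did not pass (limma, adjusted p under 0.05 over 454 genes), but with T cell gene scaling Cd47 was lower and the other risen genes did not pass. Over all tested genes, 46.9% rose and 24.7% fell, so calls were common, and the 8 genes are not set apart by their number. The media did not overlap for the same 6 CD genes and for 68.1% of all tested genes. The median log2 difference was 1.01 over the 8 CD genes and 0.41 over all tested genes. Since Cd84 reached the filter only through its level in knockout medium, this count and median are descriptions.

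Cd69, a C-type lectin that appears early after T cell activation, measured, in sample order, 30.9, 26.2, 38.2 and 35.1 with wild-type medium against 75.7, 81.1, 126 and 131 with knockout medium. Every knockout medium sample was higher than every wild-type medium sample, and within knockout medium samples 3 and 4 were the higher ones. The means were 32.6 ± 5.20 and 103 ± 29.1, a difference of 1.61 on the log2 scale (SE 0.23, 95% interval 1.08 to 2.13, limma adjusted p = 0.000253). Cd84, an adhesion receptor that binds itself on neighbouring leukocytes, was 23.0, 15.4, 30.9 and 14.9 against 41.2, 56.7, 80.6 and 74.9. In wild-type medium 2 of its samples were below the threshold, and in knockout medium none was. With wild-type values raised to the threshold knockout medium was at least 2.58-fold higher. Cd84 passed the filter only through knockout medium, so its adjusted p is given from the fit of all genes without a filter (limma adjusted p = 0.00151).

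The tetraspanin gene Cd151, whose product joins laminin-binding integrins, had the smallest adjusted p of the 8. Its values were 280, 267, 235 and 208 in wild-type medium against 610, 604, 802 and 754 in knockout medium. The groups were well apart, at 248 ± 32.4 and 693 ± 101, or 2.80-fold (log2 difference 1.48, SE 0.13, 95% interval 1.17 to 1.79, limma adjusted p = 1.45e-05). Samples 3 and 4 had less Cd151 than samples 1 and 2 in wild-type medium, at a ratio of 0.809, and more in knockout medium, at a ratio of 1.28. Cd276, or B7-H3, a B7 family ligand also carried by tumour and stromal cells, was 19.0, 29.0, 21.8 and 25.5 against 53.1, 42.8, 75.3 and 58.8. The wild-type medium values straddled the threshold and all knockout medium values were above it. It rose 2.41-fold, from 23.8 ± 4.34 to 57.5 ± 13.6 (log2 difference 1.22, SE 0.22, limma adjusted p = 0.001).

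Cd47, the signal that protects cells from phagocytosis by binding SIRPα, was 934, 938, 883 and 889 in wild-type medium against 1119, 1252, 1609 and 1346 in knockout medium. The wild-type medium samples were tightly grouped and all lay below the knockout medium samples. Its rise of 1.46-fold, or 0.53 on the log2 scale (SE 0.11, limma adjusted p = 0.00204), was only 0.12 above the median of all tested genes and turned to a fall of 0.69 (limma adjusted p = 0.00968) under scaling to T cell genes. The call was also lost with median scaling (log2 difference 0.14, limma adjusted p = 0.266) and with scaling to the positive controls (0.39, limma adjusted p = 0.0952). With 2 values per medium, the averages of samples 1 and 2 and of samples 3 and 4, it was lost too (limma adjusted p = 0.0602).

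Cd99, an adhesion molecule of leukocytes and endothelium, was the tested CD gene that fell. Its values were 53.9, 54.3, 60.1 and 52.1 in wild-type medium against 35.9, 34.7, 41.4 and 24.6 in knockout medium. The lowest wild-type medium sample stood above the highest knockout medium sample. The means were 55.1 ± 3.46 and 34.2 ± 6.97, a ratio of 0.620 (log2 difference -0.69, SE 0.19, limma adjusted p = 0.00854). With T cell gene scaling the difference was -1.89 (limma adjusted p = 2.79e-05), but this scaling lowers all genes in knockout medium. Relative to the median of all tested genes Cd99 stood at -1.09 under it, against -1.11 in the authors' scaling. The call was lost in samples 3 and 4 alone (limma adjusted p = 0.0516) and when each of these pairs of samples was averaged (limma adjusted p = 0.065).

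Cd38, an NAD-consuming ectoenzyme found on activated lymphocytes and many other cells, was 19.0, 21.7, 25.5 and 22.3 in wild-type medium against 17.3, 37.1, 71.1 and 49.3 in knockout medium. Knockout medium sample 1 was the lowest of all 8, and the other knockout medium samples were above every wild-type medium sample. The difference of 0.79 on the log2 scale (SE 0.38, 95% interval -0.09 to 1.67) did not pass (limma adjusted p = 0.0948). It passed with the replicate number as a block (limma adjusted p = 0.0434), with numbers 1-2 and 3-4 as a block (0.0372), in samples 3 and 4 alone (0.00501) and without knockout medium sample 1 (0.00359). It did not pass in samples 1 and 2 alone (log2 difference 0.31, limma adjusted p = 0.491) or with samples 1 and 2 and samples 3 and 4 averaged (limma adjusted p = 0.226). With T cell gene scaling it was negative, at -0.39 (limma adjusted p = 0.26).

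Cd1d1, which presents lipids to NKT cells, was 57.8, 38.0, 37.3 and 42.5 in wild-type medium against 23.9, 45.2, 63.6 and 53.1 in knockout medium. The media overlapped, and wild-type medium sample 1 and knockout medium sample 1 were each at an end of their group. The log2 difference of 0.02 had a 95% interval of -0.68 to 0.71 (limma adjusted p = 0.961). It was -0.50 in samples 1 and 2 alone, and -1.18 with T cell gene scaling, where it passed as lower (limma adjusted p = 0.00334).

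**Figure D2:**
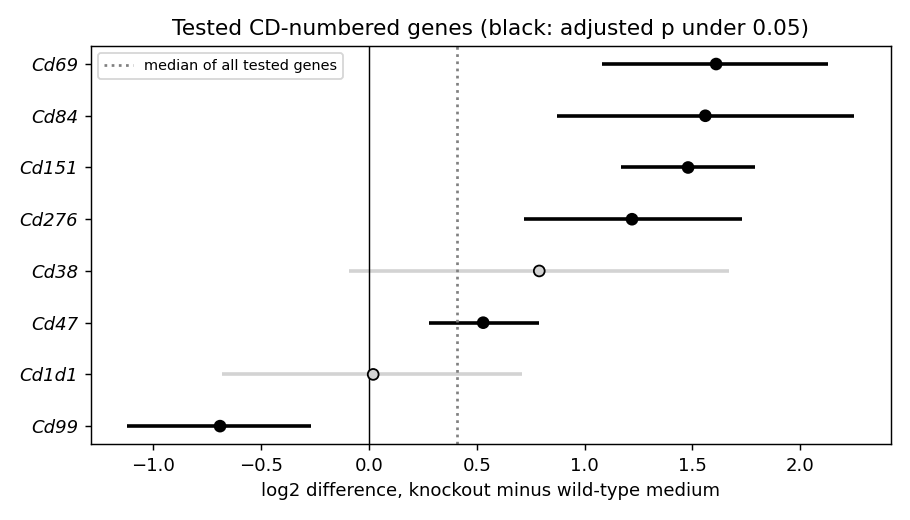
Fitted log2 difference, knockout minus wild-type medium, for the 8 tested CD genes with 95% intervals; black points passed an adjusted p of 0.05 and grey points did not. The dotted line is the median of all tested genes, 0.41, which lies inside the interval of Cd47 and below those of Cd69, Cd84, Cd151 and Cd276. Under T cell gene scaling Cd47, Cd38 and Cd1d1 were on the lower side as well as Cd99.

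The scaling of the samples set how many of these differences were called. T cell gene scaling used Ptprc, Cd247, Fyn, Cd27 and Lat, genes of the T cell list that rose themselves, of which Ptprc and Fyn are not confined to T cells. It moved the median of all tested genes from 0.41 to -0.80 and the calls over all genes to 14.1% higher and 57.5% lower. Under it no CD gene was called higher (limma, and 0 at an unadjusted p under 0.05) and Cd47, Cd99 and Cd1d1 were called lower. Cd69, Cd84, Cd151 and Cd276 then differed by 0.41, 0.38, 0.26 and 0.04 on the log2 scale. Relative to the median of all genes under the same scaling, they stood at 1.21, 1.18, 1.06 and 0.84, against 1.20, 1.15, 1.07 and 0.81 in the authors' scaling. This scaling multiplies all genes of a sample by 1 factor, so the likeness was fixed in advance, apart from the pseudocount, and tests nothing. These 4 genes were called higher under the authors', positive-control, quantile and median scalings, and Cd99 was called lower under all 5.

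**Figure D3:**
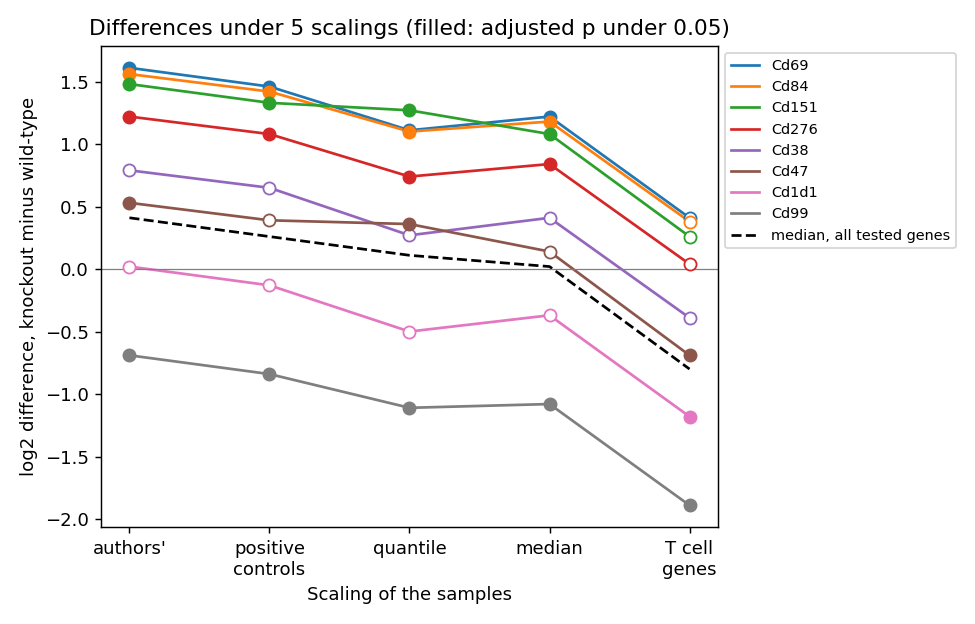
Log2 difference, knockout minus wild-type medium, of the 8 tested CD genes under 5 scalings of the samples; filled points passed an adjusted p of 0.05, and the dashed line is the median of all tested genes. The lines run nearly parallel to the dashed line, which drops from 0.41 to -0.80. Cd47, Cd38 and Cd1d1 end below 0, and Cd99 is below 0 throughout. All scalings but the quantile use 1 factor per sample, which moves every gene alike, so the parallel course is arithmetic.

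Levels also went with the sample numbers. In knockout medium the mean of samples 3 and 4 exceeded that of samples 1 and 2 by a ratio of 2.22 for Cd38, 1.69 for Cd1d1, 1.64 for Cd69, 1.59 for Cd84, 1.40 for Cd276, 1.28 for Cd151 and 1.25 for Cd47, and was 0.935 of it for Cd99. In wild-type medium the same ratio ran from 0.809 for Cd151 to 1.28 for Cd69. Knockout medium was higher in both pairs for Cd69 (2.74-fold in samples 1 and 2, 3.51-fold in samples 3 and 4), Cd151 (2.22-fold and 3.51-fold), Cd276 (2.00-fold and 2.83-fold) and Cd47 (1.27-fold and 1.67-fold). Cd1d1 was 0.721 of the wild-type medium level in samples 1 and 2 and 1.46 times it in samples 3 and 4. The difference between the pairs was not tested, because the meaning of the numbers is not labelled.

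Several of these molecules act through a partner, and a list of 29 partner genes was set beside them. Of these, 17 were measured and 14 tested: 10 rose, 1 fell and 3 did not pass, beside 46.9% and 24.7% of all tested genes. Their median log2 difference was 0.91, against 0.41 over all tested genes. Pdcd1lg2, S1pr1 and Icosl reached the filter only through knockout medium, so these counts and this median are descriptions. With T cell gene scaling 2 partners were higher, Sirpa and Adgre5, and 4 lower, Cd274, Tnfrsf14, Traf6 and Icosl. Sirpa, the phagocyte receptor for CD47, was 60.2, 59.7, 55.5 and 71.2 in wild-type medium against 877, 741, 821 and 844 in knockout medium. The groups were far apart, and the rise was 3.72 on the log2 scale (SE 0.11, limma adjusted p = 8.26e-09), and 2.50 with T cell gene scaling (limma adjusted p = 6.50e-07). S1pr1, the egress receptor that CD69 pulls from the cell surface, averaged 16.9 in wild-type medium, below the threshold, and was at least 1.42-fold higher in knockout medium. It passed the filter only through the latter (limma adjusted p = 0.014 in the fit without a filter), and it was -0.29 on the log2 scale with T cell gene scaling (limma adjusted p = 0.476).

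The T cell receptors of the B7 and CD70 ligands were tested, whereas Cd80, Cd86 and Cd70 were mostly at background. Ctla4 rose from 66.2 ± 13.1 to 181 ± 25.8 (limma adjusted p = 7.39e-05), and Cd28 from 30.9 ± 19.0 to 79.5 ± 27.7 (limma adjusted p = 0.017), with wild-type medium samples 1 and 2 below the threshold. Cd27 rose from 53.5 ± 10.5 to 135 ± 34.5 (limma adjusted p = 0.000979), beside Cd70 at 3.60 ± 0.815 and 4.22 ± 1.84. Scaled to T cell genes, none of these 3 receptors passed (limma adjusted p = 0.313, 0.477 and 0.724). Cd27 is itself among the genes that set this scaling, so its result was largely fixed in advance. Tlr4, the receptor that CD14 serves, rose from 115 ± 18.9 to 207 ± 4.01 (limma adjusted p = 0.000308) while Cd14 stayed near background, and with T cell gene scaling Tlr4 was -0.35 on the log2 scale (limma adjusted p = 0.224). Traf6, an adaptor used by CD40, rose by 0.32 (SE 0.10, limma adjusted p = 0.0185) with Cd40 undetected, and passed as lower with T cell gene scaling, at -0.90 (limma adjusted p = 0.00344). The partner that fell was Cd274 (PD-L1), by 0.92 on the log2 scale (limma adjusted p = 0.0342).

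**Figure D4:**
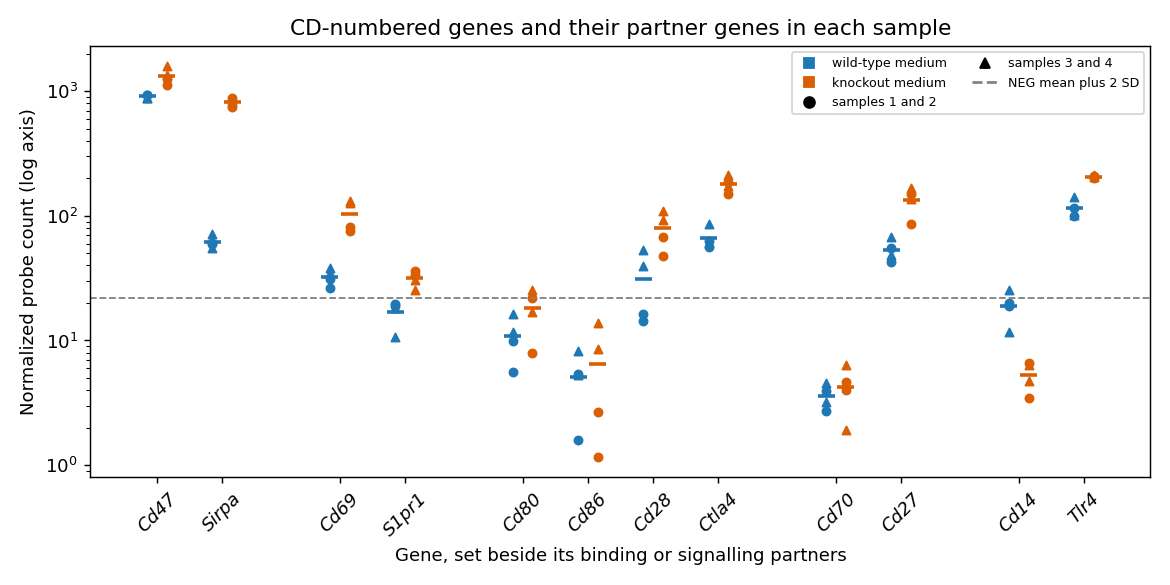
Normalized probe count (log axis) of CD genes and their partner genes in each sample, with bars at the group means; colours, symbols and the dashed line of 22.08 are as in the plot of all CD genes. Sirpa is 55.5 to 71.2 in wild-type medium against 741 to 877 in knockout medium, while Cd70 and Cd86 lie below the line in every sample.

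Lineage markers without a CD number were set beside the undetected CD genes. Of 9 macrophage and monocyte genes measured, 5 (Csf1r, Adgre1, Fcgr1, Mrc1 and Cx3cr1) were below the threshold in all 8 samples, and 3 were tested, of which 0 passed (limma, with 1, Ccr2, at an unadjusted p under 0.05). Their summed level was 105 to 248 in wild-type medium against 187 to 471 in knockout medium. Without Ccr2, which T cells also express, the sum of the other 8 was 83.9 to 110 against 67.4 to 125. Of 6 dendritic cell genes 4 (Itgax, Flt3, Xcr1 and Clec9a) were below it throughout, while the transcription factor gene Irf8, also used by B cells and macrophages, was at least 8.87-fold higher in knockout medium, through which alone it passed the filter (limma adjusted p = 0.000359 in the fit without one). The dendritic cell sum was 28.1 to 51.1 and 90.3 to 416, of which Irf8 alone gave 4.25 to 14.6 and 53.1 to 373. For Itgax, Flt3, Xcr1, Clec9a and Batf3, the other dendritic cell genes measured, the media overlapped. All 8 granulocyte and mast cell genes were below the threshold in every sample, with sums of 45.6 to 47.8 and 23.8 to 56.7. Of the B cell genes, Fcer2a was below it throughout and Ms4a1, which encodes CD20, averaged 19.9 ± 3.48 and 22.3 ± 7.86, with no CD gene of the B lineage among the 21. Of 3 endothelial and platelet genes 2 were below it in all samples, with sums of 22.6 to 38.3 and 23.7 to 39.4, and none was tested. Of 2 NK genes tested, Nkg7 rose by 1.60 on the log2 scale (limma adjusted p = 0.00824), to 0.38 with T cell gene scaling (limma adjusted p = 0.239), and Klrk1 did not pass (limma adjusted p = 0.37). Of 5 stromal genes tested, 4 fell and Pdgfrb rose, the latter to -0.51 with T cell gene scaling (limma adjusted p = 0.182). The part of these cells in the CD gene results was not tested. No gene of the melanocyte list was measured.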

How the data were processed

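The deposited table holds signal values, which are normalized probe counts for 754 genes and 14 control probes in 8 samples. The sources used here do not give the software or the normalization. In each sample the deposited signal values above 1 were whole multiples of 1 factor (0.792 to 1.33, tolerance 0.1 of a step, 99.87% to 100% of values), values that would be lower were listed as 1, and controls were left unscaled. The detection threshold, set on these unscaled controls, was used on scaled gene values.

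limma 3.58.1 (R 4.3.3; lmFit and trended eBayes) was run on log2(value + 1) for all genes with a mean of at least 22.08. Tests were two-sided, with Benjamini-Hochberg adjustment over the 454 genes tested. Fold changes on this scale understate the change of low genes. Where only 1 medium averaged below the threshold, its values were raised to it and the fold is a lower bound. The fit was tested on simulated data.

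Same-numbered samples of the media deviated together (correlations across genes of 0.454, 0.296, 0.465 and 0.197, genes not being independent replicates). All exceed 0.1, so by a fixed rule the numbers in the titles were taken to pair the samples, although the labels do not explain them. The fit as reported held the medium alone and was not paired. This pairing entered only as an alternative, with the replicate number as a block. Sample 1 also resembled sample 2, and sample 3 resembled sample 4, of the other medium (0.255 to 0.424), so pairs of numbers were tried as a block too.

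The 21 genes, the lists (roles, partners, T, NK, B, macrophage and monocyte, dendritic, granulocyte and mast, stromal, melanocyte, endothelial and platelet genes) and the tests were chosen with earlier results of these data known. Values in every sample are given for CD genes whose mean reached the threshold in at least 1 medium, and for 3 others as stated. Alternatives covered the pseudocount, the filter, the scaling, blocks, left-out samples and the detection threshold. Promoter windows are from RefSeq.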

Additional observations from a re-analysis of the deposited data

Results flagged for a closer look

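In groups of 4 samples, 3 values lay far from the other 3 of their medium, judged by the gap to the nearest sample relative to the group's whole range. They were Cd40 at 6.36 in knockout medium sample 3, Cd40lg at 2.38 in wild-type medium sample 1, and Cd83 at 3.96 in wild-type medium sample 1. Chance flags about 1 in 20 groups, and 42 groups were checked. All 3 values are below the detection threshold of 22.08, and no tested CD gene had such a sample.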

How the results depend on the processing

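Of the 179 values of the 8 tested CD genes under other settings, 155 kept their direction and their side of the threshold, 9 lost the call, 4 gained one and 11 changed sign. With T cell gene scaling, 0 CD genes were higher (5 in the fit as reported; limma, 0 at an unadjusted p under 0.05) and 3 lower, Cd47 turned to -0.69, Cd38 to -0.39 and Cd1d1 to -1.18. Cd1d1 also turned negative with median (-0.37), quantile (-0.50) and positive-control scaling (-0.13), in samples 1 and 2 alone (-0.50) and without single samples (its log2 difference ran from -0.16 to 0.30 with each sample left out). With a filter at a mean of 50, 3 CD genes were tested, 3 were higher and 0 lower. Without a filter 2 were lower, Cd99 and Cd14, and Cd83 was added to those higher, beside 32.6% of all genes higher and 15.6% lower. Cd83 was 1.00 to 3.96 in wild-type medium and at most 7.42 in knockout medium, so its call compares values near the floor. A filter on the higher of the media's means, added after seeing the data, left 5 higher and 1 lower. The number lower was 0 in samples 3 and 4 alone and with samples 1 and 2 and samples 3 and 4 averaged (limma, 1 in each at an unadjusted p under 0.05). Over all genes, 65.5% of calls were higher, against 50.7% with median, 55.0% with quantile and 19.7% with T cell gene scaling. The replicate number as a block brought the count of higher CD genes from 5 to 6 by adding Cd38, and changed no other CD gene's call. With each sample left out the number higher was 5 or 6 and the number lower 1, the sixth being Cd38 without knockout medium sample 1.

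For detection, 2 genes, Cd47 and Cd151, passed in all 8 samples at the mean plus 3 SD or at the highest negative control, in place of 5. One negative probe, NEG_H, read 13 to 30 and the other 7 read 1 to 21. Without it, a choice made after seeing the data, the threshold was 15.4, and 8 in place of 5 genes were detected in all wild-type medium samples. The same 10 genes were undetected with each sample's own threshold, on recovered counts and without NEG_H. The planned edgeR and DESeq2 fits were not run, since the values are scaled and floored at 1. Depth limits genes near 22.08.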
